A study of Rattus norvegicus with 46 samples.

Results

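The carnitine shuttle and its malonyl-CoA control were followed as a set of 9 rat genes, Slc22a5, Cpt1a, Cpt1b, Slc25a20, Cpt2, Crat, Crot, Mlycd and Acacb. Members were taken by gene symbol from the probes of the array, and 8 of the 9 had a probe and were tested among 7182 genes. The expression of Acacb, which encodes the acetyl-CoA carboxylase of the mitochondrial surface, was not analysed here. The cells were cardiomyocytes of adult male wildtype Wistar rats, kept in culture on laminin without serum and then treated for 24 h. Fatty acids were given at 0.4 mM, bound to fat-free bovine serum albumin (BSA), and BSA at 1% was present in every group, so that the control received BSA alone. RNA was hybridised to 46 Illumina rat bead arrays, with 7 arrays each for control and linoleate and 8 each for octanoate, palmitate, stearate and oleate. Octanoate is saturated and of medium chain length. Long chains without a double bond are those of palmitate and the longer stearate, oleate has the chain of stearate with a double bond, and linoleate has a further double bond. Whether the arrays of a group came from different animals or cultures was not stated in the labels. The p-values therefore cover only the spread among these arrays, part or all of which can be technical.

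Long-chain fatty acids cannot cross the inner mitochondrial membrane as such. After activation to acyl-CoA they are transferred to carnitine by carnitine palmitoyltransferase I on the outer membrane, carried inward by a translocase in exchange for free carnitine, and returned to coenzyme A by carnitine palmitoyltransferase II. Malonyl-CoA inhibits the first transferase, and malonyl-CoA decarboxylase removes that inhibitor, which makes malonyl-CoA the main brake on fatty acid oxidation in the heart. Octanoate can enter mitochondria as the free acid and be activated inside, without this shuttle. In rodents, several shuttle genes are known targets of the fatty acid receptor PPAR-alpha, and the heart takes its carnitine from the blood through the carrier encoded by Slc22a5.

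Promoter sequences are shown because most members moved together, to let the windows before their starts be compared. RefSeq promoters of the rat GRCr8 build, 250 bases before to 50 after the start, were at hand for 8 of the 9 members, all but Cpt1b. The 4 printed are those of the carnitine carrier Slc22a5, of Cpt1a, of the translocase Slc25a20 and of the malonyl-CoA decarboxylase Mlycd. The carrier was the only member called higher under octanoate, and the window of Cpt1a, unlike the other 3, holds no GC box. The windows of Cpt1a, Crot and Cpt2 lie wholly inside the gene coordinates given below, so they do not cover the upstream end of those genes. Capitals mark the GC box GGGCGG on either strand, so that CCGCCC is the same box read on the other strand.
Slc22a5, chr10:38536023-38536322, minus strand: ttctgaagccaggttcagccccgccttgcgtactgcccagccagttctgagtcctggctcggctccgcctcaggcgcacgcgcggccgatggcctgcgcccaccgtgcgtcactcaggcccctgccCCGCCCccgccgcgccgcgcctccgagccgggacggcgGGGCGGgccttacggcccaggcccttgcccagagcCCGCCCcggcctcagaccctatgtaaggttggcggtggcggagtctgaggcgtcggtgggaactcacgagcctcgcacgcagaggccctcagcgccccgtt
Cpt1a, chr1:209995910-209996209, plus strand: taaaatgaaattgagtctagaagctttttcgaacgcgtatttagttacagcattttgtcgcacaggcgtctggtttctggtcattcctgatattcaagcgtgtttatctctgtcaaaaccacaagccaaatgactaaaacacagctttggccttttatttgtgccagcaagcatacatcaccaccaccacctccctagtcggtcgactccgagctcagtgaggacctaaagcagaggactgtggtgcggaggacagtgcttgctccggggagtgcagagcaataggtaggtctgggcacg
Slc25a20, chr8:118243323-118243622, plus strand: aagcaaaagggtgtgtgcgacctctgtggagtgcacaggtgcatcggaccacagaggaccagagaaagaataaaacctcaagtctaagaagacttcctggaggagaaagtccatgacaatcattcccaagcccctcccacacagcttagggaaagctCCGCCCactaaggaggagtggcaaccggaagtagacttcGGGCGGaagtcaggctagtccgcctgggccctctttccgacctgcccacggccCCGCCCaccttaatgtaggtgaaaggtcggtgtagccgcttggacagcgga
Mlycd, chr19:64356332-64356631, plus strand: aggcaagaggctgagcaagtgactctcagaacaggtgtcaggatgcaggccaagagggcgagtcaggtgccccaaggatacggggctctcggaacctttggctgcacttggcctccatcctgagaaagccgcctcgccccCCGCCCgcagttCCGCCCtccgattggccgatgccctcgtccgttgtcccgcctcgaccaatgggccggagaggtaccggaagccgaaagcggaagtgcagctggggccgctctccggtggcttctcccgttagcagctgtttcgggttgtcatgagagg
The GC box was in 6 of the 8 promoters, and 33.1% of the 33469 rat promoters in the table held it. The 6 with the box were 56.7% to 73.7% G or C, and all promoters had a median of 51.7% (quartiles 44.7% and 60.3%). The part of base composition in this count was not tested. Cpt1a and Acacb, at 48.3% and 53.7% G or C, had none in these windows, and other starts of these genes were not searched. The direct repeat AGGTCANAGGTCA, the consensus form of the element bound by PPAR with its partner RXR, was in 0 of 8 and in 0.0538% of all promoters. The single AGGTCA, which is contained in that repeat, was in Acacb alone, against 16.2% of all promoters. CCAAT was in 3 of 8 (Acacb, Crot and Mlycd) against 37.5% of all, and TGATGNAA, TCAAGGTCA, TGACGTCA and CACGTG were in 0 of 8, against 3.98%, 0.433%, 1.83% and 6.42%. All motifs were searched on both strands. These are matches of letters in a short window.

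Between 3090 and 7886 of the 22517 probes were detected per array. Stearate arrays 5, 6, 7 and 8 had 3700, 4143, 4632 and 3090 detected, with signal ranges (95th percentile over median) of 5.42, 6.68, 4.94 and 4.79. Stearate arrays 1, 2, 3 and 4 had 5686, 6894, 5738 and 7220 detected. The part of this low detection in the stearate comparisons was not tested. Of 10 cardiomyocyte markers 9 were tested and all 9 were detected in all 46 arrays, while 0 of 5 endothelial and 0 of 4 adipocyte markers passed the detection filter. Fibroblast markers passed for 4 of 7, smooth muscle markers for 1 of 6 and macrophage markers for 2 of 6. The arrays numbered 4 of octanoate, palmitate, oleate and linoleate stood apart from their groups. In them the hypoxia-responsive gene Ankrd37 was at 12.4 to 12.5 on the log2 scale, and elsewhere in those groups, array 7 aside, it was at 9.92 or less. The arrays numbered 7 of octanoate, palmitate and stearate had Ankrd37 at 11.5, 11.0 and 10.6. Member results are therefore also given without the arrays numbered 4 and 7 wherever this changed a call. Both numbers were left out of every group, which left 5 control arrays. This also removed arrays without high Ankrd37, such as control 7 (6.72), stearate 4 (7.24), oleate 7 (7.45) and linoleate 7 (6.55). A call can thus also be lost through the smaller number of arrays. In bulk RNA, fewer cells of a type and less RNA per cell cannot be told apart.

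In a limma F test across the 5 contrasts with control, 8 of 8 members had an adjusted p under 0.05, and 28.8% of all genes did. Crot, at 0.0254, missed that threshold without octanoate arrays 5, 6 or 8 (0.0564 to 0.0598), with no detection filter (0.0583) and with arrays scaled to their median (0.259). Octanoate and the long chains moved the shuttle in different ways against BSA alone. Under octanoate 5 of 8 members were called (limma, adjusted p under 0.05), with Cpt2, Mlycd, Cpt1b and Crot lower and Slc22a5 higher, and 24.7% of genes were called, 13.1% lower and 11.6% higher. Under the long chains each called member was higher. Palmitate raised 4 of 8 (Crat, Slc25a20, Cpt1b and Mlycd), where 11.1% of genes were called and 5.3% were called higher. Stearate raised 3 of 8 (Crat, Mlycd and Slc25a20), where 13.1% were called and 4.19% were called higher. Oleate raised 5 of 8 (Cpt1a, Cpt1b, Slc25a20, Crat and Mlycd), where 0.571% of genes were called and 0.515% were called higher. Linoleate raised 4 of 8 (Cpt1b, Slc25a20, Crat and Mlycd), where 0.473% were called and 0.334% were called higher. The 5 comparisons share their control arrays. The median log2 change over the 8 members was -0.60 under octanoate, 0.75 under palmitate, 0.49 under stearate, 1.01 under oleate and 0.98 under linoleate, and the median of all genes lay between -0.06 and -0.01.

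Array signal and scaling bear on these counts. Signal range, the 95th percentile of an array divided by its median, had group medians of 13.7 in control, 10.1 under octanoate, 9.82 under palmitate, 8.08 under stearate, 10.7 under oleate and 7.01 under linoleate. With signal range as a covariate the counts were 5, 5, 1, 5 and 4 for octanoate, palmitate, stearate, oleate and linoleate. In the same order, 2700, 1511, 1329, 53 and 54 of 7182 genes were then called. When each array was scaled to its median over all 22517 probes, most of which were not detected, the median of all genes moved to between -0.02 and -0.49 against control and 0 members were called under any long chain in limma, against 3 under octanoate. Of 7182 genes, that scaling called 657 under octanoate, 204 under palmitate, 1862 under stearate, 13 under oleate and 8 under linoleate. At an unadjusted p under 0.05 that scaling gave 4 members under palmitate, 0 under stearate, 5 under oleate and 5 under linoleate. Under that scaling Slc25a20 under stearate turned to -0.15, a value above the all-gene median of -0.49. When the median was taken over the 2848 probes detected in every array, the counts were 4, 5, 4, 5 and 5 for octanoate, palmitate, stearate, oleate and linoleate. In the same order, 1821, 820, 763, 44 and 30 of 7182 genes were then called. Without octanoate arrays 5, 6 or 7 the octanoate count was 3, and without control array 1 the stearate count was 1. The octanoate count was also 3 without the arrays numbered 4 and 7, where 1249 of 7182 genes were called.

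**Figure D1:**
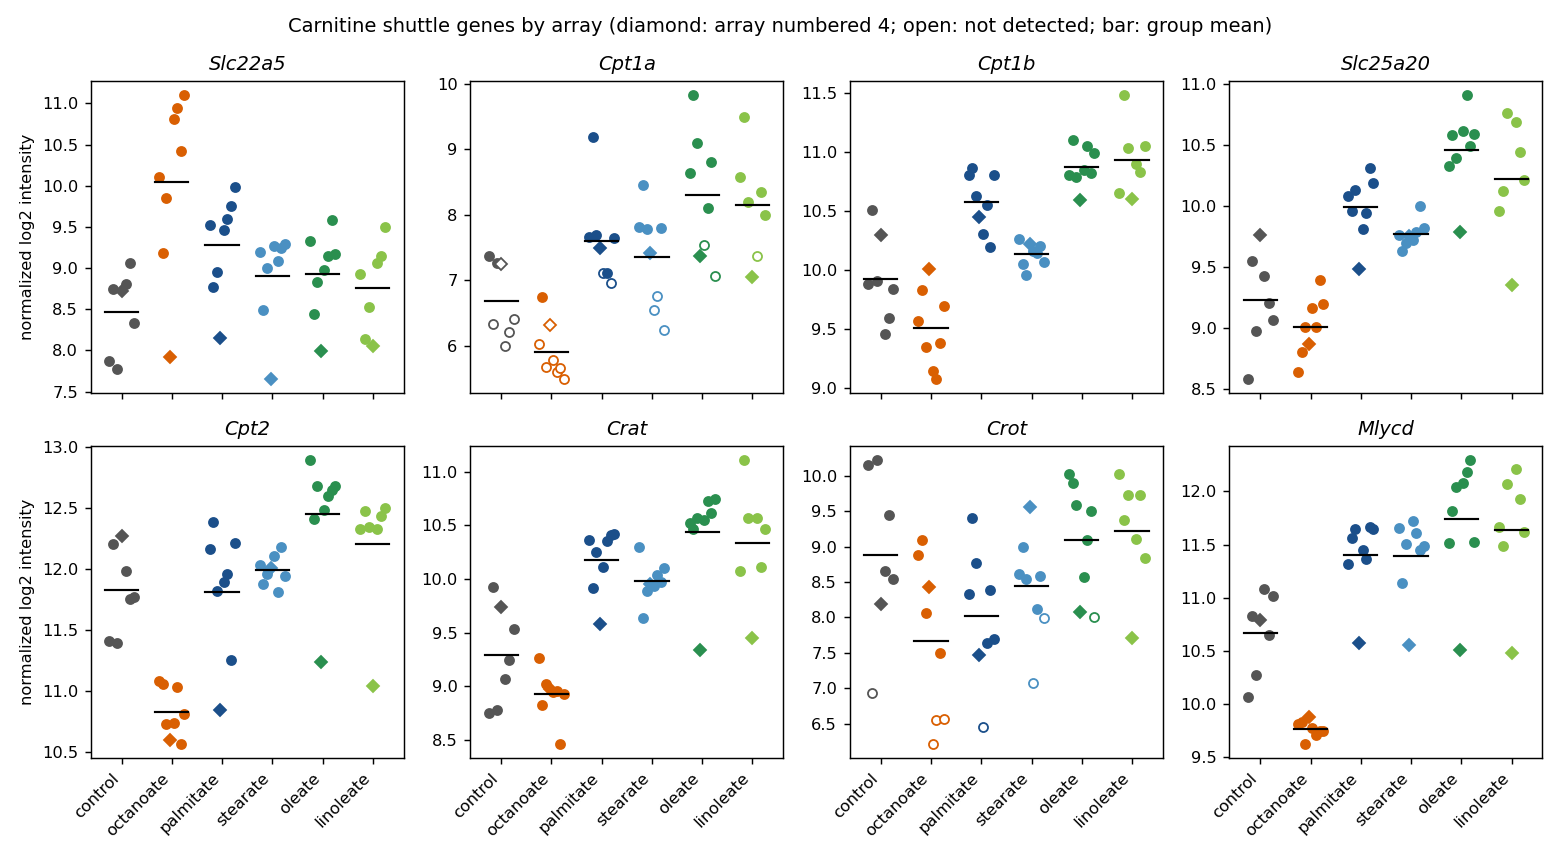
Normalized log2 intensity of the 8 tested members in each of the 46 arrays, 1 panel per gene, with the 6 groups along the horizontal axis. Bars are group means, diamonds are the arrays numbered 4 and open symbols are arrays in which the probe was not detected. Octanoate arrays of Mlycd and Cpt2 lie below every control array, and 7 of 8 octanoate arrays of Slc22a5 lie above every control array.

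The member that octanoate raised was the gene for carnitine uptake. Slc22a5 (chr10:38509072-38536240) encodes the sodium-dependent carnitine carrier of the cell membrane. Its normalized log2 intensity had a lowest, median and highest value of 7.77, 8.72 and 9.06 in control and of 7.92, 10.26 and 11.10 under octanoate. In the saturated long-chain groups these were 8.15, 9.49 and 9.98 for palmitate and 7.66, 9.14 and 9.30 for stearate. The unsaturated fatty acids gave 7.99, 9.06 and 9.58 for oleate and 8.05, 8.93 and 9.50 for linoleate. 7 of 8 octanoate arrays were above every control array, the exception being octanoate array 4, and the lowest value of each fatty acid group was in its array 4. Octanoate raised Slc22a5 by 1.57 ± 0.33 (SE) on the log2 scale, a 2.97-fold increase (limma, adjusted p = 0.000443). The long chains were not called against control, at 0.80 ± 0.33 for palmitate (adjusted p = 0.11), 0.43 for stearate (0.432), 0.46 for oleate (1) and 0.29 for linoleate (0.95), with 95% intervals that reached from -0.40 at the lowest to 1.47 at the highest.

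Markers of other cells and of cardiomyocytes moved with some treatments. Under octanoate the macrophage marker Cd68 rose by 1.22 ± 0.22 (adjusted p = 7.38e-05) and the other tested macrophage marker, Cd14, was at -0.07 (0.833). The summed level of the 2 tested macrophage markers was 7.74 to 8.43 on the log2 scale under octanoate and 7.01 to 7.73 in control. Of the 9 cardiomyocyte markers 3 fell, Pln by 1.62, Ckm by 0.49 and Tnnt2 by 0.43, where 13.1% of all genes were called lower. The summed level of the 9 was 17.15 to 17.50 under octanoate and 17.59 to 17.82 in control. The Ckm call was lost without the arrays numbered 4 and 7 (-0.29, 0.228), and Atp2a2 was then called lower (-0.46, 0.0338). Under palmitate Cd68 rose by 0.70 ± 0.22 (0.0328, summed macrophage level 7.24 to 8.12) with Cd14 at -0.35 (0.227), the pericyte marker Cspg4 was at -1.02 (0.0307) and Myl2 at -0.98 (0.0329). These palmitate calls were lost without the arrays numbered 4 and 7, with Cd68 at 0.49 (0.244), Cspg4 at -0.74 (0.219) and Myl2 at -0.70 (0.289). Under stearate Cspg4 was at -2.12 (8.76e-06), ranging from 5.81 to 8.16 against 7.59 to 9.91 in control. The Cspg4 probe was not detected in every array and had a stearate median of 6.13, so its fall can include background readings. Also under stearate, 1 of 4 fibroblast markers, Dcn, was at -1.14 (0.0461), with a summed fibroblast level of 10.32 to 12.16 against 10.93 to 12.92. The Dcn call was lost without the arrays numbered 4 and 7 (-1.22, 0.0783), and Cd14 (-0.56, 0.0468) and Atp2a2 (-0.48, 0.0381) were then called lower under stearate. Of 7182 genes, 414 were called lower under palmitate and 640 under stearate. Oleate and linoleate called 0 of these markers in limma, where 0.571% and 0.473% of genes were called, with 1 cardiomyocyte marker each at an unadjusted p under 0.05. The part of these markers in the member results was not tested.

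Entry into the shuttle is set by carnitine palmitoyltransferase I, encoded by Cpt1b in muscle and by Cpt1a in liver and, at lower levels, in heart. Cpt1b (chr7:122370974-122380473), detected in all 46 arrays, ran from 9.45 through a median of 9.88 to 10.51 in control and from 9.08 through 9.47 to 10.004 under octanoate. Palmitate arrays lay at 10.19, 10.59 and 10.87 (lowest, median, highest) and stearate arrays at 9.95, 10.15 and 10.26. Oleate arrays lay at 10.59, 10.83 and 11.10 and linoleate arrays at 10.60, 10.90 and 11.48. All oleate and linoleate arrays were above every control array, whereas stearate arrays lay wholly within the control range. Groups that did not overlap made up 0.251% of genes for oleate and 0.306% for linoleate against control. Linoleate raised Cpt1b 2.02-fold (log2 1.01 ± 0.15, adjusted p = 3.25e-05), oleate 1.93-fold (0.95 ± 0.15, 3.64e-05) and palmitate 1.57-fold (0.65 ± 0.15, 0.00254). The stearate change was 0.21 ± 0.15 (adjusted p = 0.38), with a 95% interval from -0.09 to 0.51. Octanoate lowered Cpt1b by 0.42 ± 0.15 (adjusted p = 0.0324), with 4 of 8 arrays below every control array. That call was lost without control arrays 2 or 4 or octanoate arrays 3, 5, 6 or 7 (adjusted p 0.055 to 0.122) and without the arrays numbered 4 and 7 (0.0808).

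Cpt1a (chr1:209993881-210056329) was near the detection limit and was detected in 26 of 46 arrays, with 2 of 7 control and 1 of 8 octanoate arrays among them. Its lowest, median and highest values were 6.003, 6.41 and 7.37 in control and 5.50, 5.73 and 6.74 under octanoate. Palmitate gave 6.96, 7.57 and 9.18 and stearate 6.24, 7.60 and 8.45. Oleate gave 7.07, 8.37 and 9.83 and linoleate 7.05, 8.20 and 9.49. 6 of 8 oleate arrays and 5 of 7 linoleate arrays were above every control array. In control and octanoate most arrays thus read this probe at background, so its differences from those groups depend on the background correction and are given without folds. Oleate raised Cpt1a by a fitted 1.62 ± 0.36 on the log2 scale (adjusted p = 0.0123), or by 0.98 without background correction (0.0219), a call that was lost without control array 5 (0.0517), without oleate array 2 (0.0562) and without the arrays numbered 4 and 7 (0.0715). Linoleate gave 1.46 ± 0.37 (adjusted p = 0.0605), which passed the threshold when any of 10 single arrays was left out (0.0246 to 0.0499; control 1 or 3, linoleate 4 or 5, oleate 2, 4 or 8, palmitate 2, or stearate 2 or 8). With adjustment over the genes and all 13 comparisons together, the linoleate p was 0.00673. It was also under the threshold with signal range as a covariate (0.00225), scaling over always-detected probes (0.0192) and the replicate block (0.000876). The linoleate change was not called without background correction (0.86, 0.129), with the authors' values (0.131) or with no detection filter (0.115). Nor was it called with only the groups compared (0.116), without the arrays numbered 4 and 7 (0.115) or with scaling to the array median (0.497). Palmitate at 0.92 (adjusted p = 0.0912), stearate at 0.66 (0.235) and octanoate at -0.78 (0.112, 95% interval -1.50 to -0.05) were not called. The change of Cpt1a was not shown to differ from that of Cpt1b under any fatty acid. The difference of the changes was -0.36 for octanoate, 0.27 for palmitate, 0.45 for stearate, 0.67 for oleate and 0.45 for linoleate, with adjusted p between 0.278 and 0.394 in a two-sided exact permutation test. Without background correction these differences were -0.12, -0.06, 0.19, 0.13 and -0.05 in the same order, so that those of palmitate and linoleate turned. Scaling to the array median made the stearate difference 0.82 (exact permutation test, adjusted p = 0.0287).

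Slc25a20 (chr8:118243573-118265027), the carnitine-acylcarnitine translocase, showed under oleate the smallest adjusted p of any member in a comparison of 1 fatty acid with control. In control it ran from 8.58 through a median of 9.20 to 9.76, and under octanoate from 8.64 through 9.01 to 9.39. Palmitate gave 9.48, 10.02 and 10.30 and stearate 9.63, 9.75 and 9.999. Oleate gave 9.78, 10.53 and 10.90 and linoleate 9.35, 10.21 and 10.76. Each oleate array was above every control array, as were 7 of 8 palmitate, 3 of 8 stearate and 6 of 7 linoleate arrays, while no octanoate array was below every control array. Oleate raised it 2.36-fold (log2 1.24 ± 0.17, adjusted p = 3.13e-06), linoleate 1.99-fold (1.00 ± 0.18, 0.000789) and palmitate 1.70-fold (0.76 ± 0.17, 0.0024). Stearate raised it by 0.55 ± 0.17 (0.0285), a call lost without control arrays 1, 3 or 7 or stearate array 7 (0.0546 to 0.0832) and turned to -0.15 by scaling to the array median. Octanoate gave -0.21 ± 0.17 (adjusted p = 0.392), with a 95% interval from -0.56 to 0.13.

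Cpt2 (chr5:127893450-127911347), the inner-membrane transferase that returns the acyl group to coenzyme A, was lowered by octanoate. Control arrays ran from 11.39 through 11.77 to 12.27, and octanoate arrays from 10.57 through 10.78 to 11.08, without overlap. Palmitate gave 10.84, 11.93 and 12.38 and stearate 11.81, 11.98 and 12.18. Oleate gave 11.24, 12.62 and 12.89 and linoleate 11.05, 12.34 and 12.50. 7 of 8 oleate and 6 of 7 linoleate arrays were above every control array, and the remaining array of each, array 4, was below every control array. Octanoate lowered Cpt2 by 1.00 ± 0.21 (adjusted p = 0.000298). Of all genes, 6.36% separated octanoate from control arrays without overlap, and Cpt2 and Mlycd were the 2 members to do so. Oleate gave 0.63 ± 0.21 (0.317) and linoleate 0.38 ± 0.21 (0.786), neither called. Without oleate array 4 the oleate change was 0.80 (0.0209). With the arrays numbered 4 and 7 left out it was 0.87 (8.00e-05), and the linoleate change was 0.63 (0.0291). Palmitate at -0.01 ± 0.21 (0.984, 95% interval -0.42 to 0.40) and stearate at 0.16 ± 0.21 (0.666, -0.25 to 0.58) were not called.

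Crat and Crot encode carnitine transferases for shorter acyl groups, carnitine acetyltransferase mainly in the mitochondrial matrix and carnitine octanoyltransferase in peroxisomes. Crat (chr3:34073504-34087099) was read from the probe detected in all 46 arrays, since its other probe was detected in 0. It ran from 8.75 through 9.24 to 9.93 in control and from 8.46 through 8.95 to 9.27 under octanoate. Palmitate gave 9.58, 10.30 and 10.42 and stearate 9.63, 9.96 and 10.30. Oleate gave 9.34, 10.56 and 10.74 and linoleate 9.45, 10.46 and 11.11. Above every control array were 6 of 8 palmitate, 6 of 8 stearate, 7 of 8 oleate and 6 of 7 linoleate arrays, and array 4 held the lowest value of the palmitate, oleate and linoleate groups. The 4 long chains raised Crat, oleate 2.22-fold (log2 1.15 ± 0.20, adjusted p = 0.000213), linoleate 2.06-fold (1.04 ± 0.20, 0.00297), palmitate 1.85-fold (0.88 ± 0.20, 0.00198) and stearate 1.61-fold (0.69 ± 0.20, 0.0161). Octanoate gave -0.37 ± 0.20 (0.173, 95% interval -0.76 to 0.03).

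Crot (chr4:26031729-26088057) was detected in 38 of 46 arrays and had a wide spread within groups. Control arrays ran from 6.93 through 8.65 to 10.22, an SD of 1.17 (n = 7), and octanoate arrays from 6.22 through 7.78 to 9.09, an SD of 1.12 (n = 8). Palmitate gave 6.45, 8.02 and 9.41, stearate 7.07, 8.57 and 9.57, oleate 8.01, 9.30 and 10.03, and linoleate 7.71, 9.37 and 10.03. The groups overlapped in each comparison with control. Octanoate lowered Crot by 1.22 ± 0.46 (adjusted p = 0.0463). The probe was detected in 5 of 8 octanoate and 6 of 7 control arrays. Octanoate arrays 5, 6 and 8, at 6.22, 6.54 and 6.57, were not detected, so the fitted size rests partly on background readings. The octanoate call was lost without any of 9 single arrays (control 1, 3, 5, 6 or 7, octanoate 5, 6, 7 or 8, adjusted p 0.0528 to 0.117) and without the arrays numbered 4 and 7 (-1.52, 0.0526). It was also lost with median scaling (0.246), no detection filter (0.104) or only the groups compared (0.0952). Signal range as a covariate (0.0613), adjustment over genes and comparisons together (0.0859) and scaling over always-detected probes (0.0696) lost it too. The call held without background correction, with the authors' values and with the replicate block. The long chains were not called, at -0.86 for palmitate (0.236), -0.44 for stearate (0.588), 0.22 for oleate (1) and 0.34 for linoleate (0.962).

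Control by malonyl-CoA was represented by Mlycd (chr19:64356582-64372447), which encodes malonyl-CoA decarboxylase. It ran from 10.06 through 10.79 to 11.08 in control and from 9.63 through 9.76 to 9.88 under octanoate, the narrowest group of the set with an SD of 0.08 (n = 8). Palmitate gave 10.57, 11.51 and 11.66 and stearate 10.56, 11.49 and 11.72. Oleate gave 10.51, 11.93 and 12.29 and linoleate 10.48, 11.67 and 12.21. All octanoate arrays were below every control array, and all arrays of each long chain except array 4 were above every control array. Octanoate lowered Mlycd by 0.91 ± 0.22 (adjusted p = 0.0015), a 1.88-fold decrease. Oleate raised it 2.10-fold (log2 1.07 ± 0.22, 0.00276), linoleate 1.95-fold (0.97 ± 0.22, 0.0202), palmitate 1.66-fold (0.73 ± 0.22, 0.0213) and stearate 1.64-fold (0.72 ± 0.22, 0.0215). The palmitate and stearate calls were lost without control array 1 (0.051 and 0.0553). The linoleate call was lost without control arrays 1 or 3 or linoleate arrays 3, 5 or 6 (0.0609 to 0.0804).

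**Figure D2:**
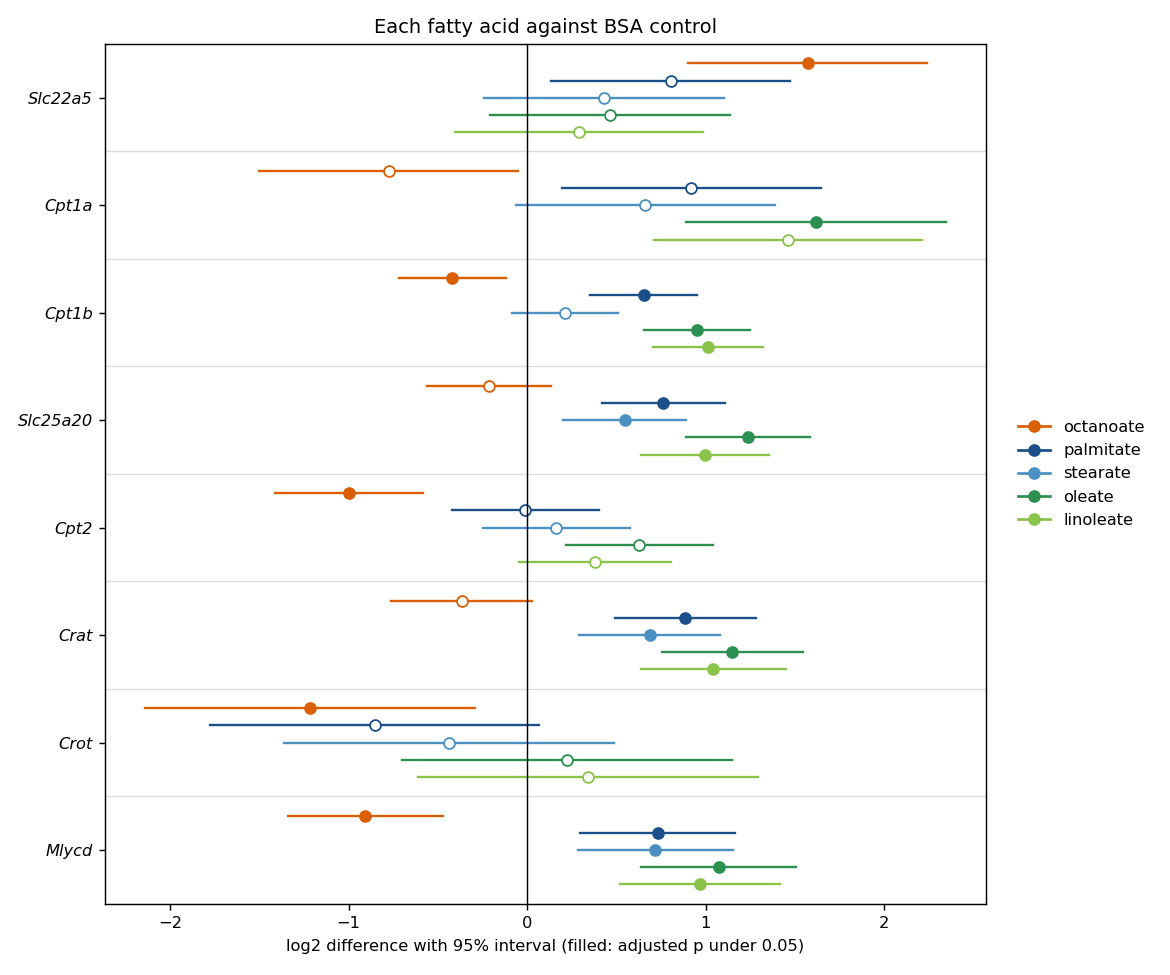
Log2 difference of each member from BSA control under the 5 fatty acids, with 95% intervals from the limma fit; filled points have an adjusted p under 0.05. Mlycd is lower under octanoate at -0.91 and higher under the long chains at 0.72 to 1.07, and Slc22a5 is called under octanoate alone. The filled Slc25a20 point of stearate turns to -0.15 when arrays are scaled to their median.

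The comparison with octanoate sets fatty acids that need the shuttle against one that can bypass it. They also differ in chain length, and the part of shuttle need in the differences was not tested. Set against octanoate, the mean of the 4 long chains was higher for 7 members and lower for Slc22a5, so that 8 of 8 were called, where 21.7% of genes were called. Mlycd differed by 1.78 ± 0.17 or 3.43-fold (adjusted p = 2.92e-11). Cpt1a, detected in 1 of 8 octanoate arrays, had a fitted difference of 1.94 ± 0.28 (1.24e-06), or 1.15 without background correction (4.32e-06), and no fold or rank is given for it against octanoate. Crat differed by 1.31 ± 0.15, Cpt2 by 1.29 ± 0.16, Cpt1b by 1.13 ± 0.11, Slc25a20 by 1.10 ± 0.13 and Crot by 1.03 ± 0.35 (0.0289). Mlycd and Crat separated all 31 long-chain arrays from the octanoate arrays, and 0.153% of genes did so. Cpt1b and Slc25a20 did so for 30 of 31 and Cpt1a and Cpt2 for 29 of 31. Slc22a5 was lower by 1.07 ± 0.26, a log2 difference of -1.07 (0.00177). The Crot call was lost without octanoate arrays 5, 6, 7 or 8 (0.0548 to 0.113).

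7 pairs of fatty acids were compared at the same dose and time. Taken singly against octanoate, palmitate gave 6 of 8 members called, where 2.23% of genes were called. These 6 were Cpt1a at a fitted 1.70 ± 0.35 (adjusted p = 0.002; 0.99 without background correction), Mlycd at 1.64 ± 0.21 (2.74e-07), Crat at 1.25 ± 0.19, Cpt1b at 1.07 ± 0.14, Cpt2 at 0.99 ± 0.20 and Slc25a20 at 0.98 ± 0.17, and 5 of them did not overlap between the groups, as 0.627% of genes did not. Slc22a5 at -0.77 ± 0.32 missed the threshold (0.253) but passed it with the replicate number as a block (0.0223), without octanoate array 4 (-1.07, 0.0279) and without the arrays numbered 4 and 7 (-0.95, 0.0444). Crot differed by 0.36 (0.886), with a 95% interval from -0.53 to 1.25. Stearate gave 7 of 8 called, where 23.7% were called, from 0.63 ± 0.14 for Cpt1b to 1.63 ± 0.21 for Mlycd, with Slc22a5 lower at -1.14 ± 0.32 (0.00944) and Crot not called at 0.78 (0.205, -0.12 to 1.67). 4 of these did not overlap, against 3.38% of genes.

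The unsaturated fatty acids differed from octanoate in every tested member. Oleate gave 8 of 8, where 20.5% of genes were called, with Mlycd 3.95-fold higher (log2 1.98 ± 0.21, adjusted p = 1.02e-09) and Cpt2 3.08-fold (1.62 ± 0.20, 4.35e-08). Linoleate also gave 8 of 8, where 16.8% were called, with Mlycd 3.67-fold higher (1.87 ± 0.22, 1.58e-08) and Cpt1b 2.70-fold (1.43 ± 0.15, 2.13e-09). The fitted difference of Cpt1a was 2.39 ± 0.35 for oleate (1.68e-06) and 2.24 ± 0.36 for linoleate (2.19e-05), and without background correction 1.45 (4.27e-06) and 1.33 (5.44e-05). Slc22a5 was lower in both, at -1.11 ± 0.32 (0.0102) and -1.28 ± 0.33 (0.00557). Crot was higher by 1.44 ± 0.44 under oleate (0.016) and by 1.56 ± 0.46 under linoleate (0.0141), and the oleate call was lost without octanoate array 5 (0.0502). For oleate 6 members and for linoleate 4 did not overlap with octanoate, against 1.81% and 1.67% of genes. Scaling to the array median left 2 members called for palmitate, 2 for stearate, 7 for oleate and 7 for linoleate against octanoate. In the same order, 37, 1923, 513 and 428 of 7182 genes were then called.

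Among the long chains, a longer saturated chain gave 0 called members in the fit without a block and a double bond in the same chain gave 2. With the replicate number as a block these counts were 1 and 3, where 815 and 999 of 7182 genes were called. Stearate against palmitate gave 0 of 8 called in limma, where 4.18% of genes were called, and 1 member, Cpt1b, had an unadjusted p under 0.05. Cpt1b was at -0.44 ± 0.14 (adjusted p = 0.0681, 95% interval -0.73 to -0.15), with 5 of 8 stearate arrays below every palmitate array. It was called with the replicate number as a block (0.0204) and with adjustment over genes and comparisons together (0.0387). The other members differed by between -0.37 and 0.42, and the intervals of Mlycd (-0.43 to 0.41) and Crot (-0.47 to 1.31) show the range of differences these arrays allow.

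Oleate against stearate gave 2 of 8, where 6.92% of genes were called. Cpt1b was higher by 0.74 ± 0.14 (limma, adjusted p = 0.000559) and did not overlap between the groups, as 0.613% of genes did not. Slc25a20 was higher by 0.69 ± 0.17 (0.00528), with 7 of 8 oleate arrays above every stearate array. Cpt1a at 0.96 ± 0.35 (0.0872) passed the threshold with the replicate number as a block (0.00762) and without oleate arrays 4 or 8 or stearate array 2 (0.0357 to 0.042). Cpt2 at 0.46 ± 0.20 (0.154) and Crat at 0.46 ± 0.19 (0.134) each had 7 of 8 oleate arrays above every stearate array and the other, array 4, below. Without oleate array 4, Cpt2 was at 0.64 (0.0168) and Crat at 0.62 (0.0167), and 5 members were called. Leaving out the arrays numbered 4 and 7 put Cpt2 at 0.67 (0.000459) and Crat at 0.61 (0.0188), and 4 members were called. Mlycd at 0.36 (0.326, -0.06 to 0.77), Crot at 0.66 (0.393, -0.23 to 1.55) and Slc22a5 at 0.03 (0.974, -0.62 to 0.68) were not called.

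A further double bond gave no called member. Linoleate against oleate had 0 of 8 called in limma, where 0.0% of genes were called, and 0 members and 35 of 7182 genes had an unadjusted p under 0.05. The differences ran from -0.25 for Cpt2 (95% interval -0.66 to 0.17) to 0.12 for Crot (-0.80 to 1.04), and that of Cpt1b was 0.06 (-0.24 to 0.36).

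**Figure D3:**
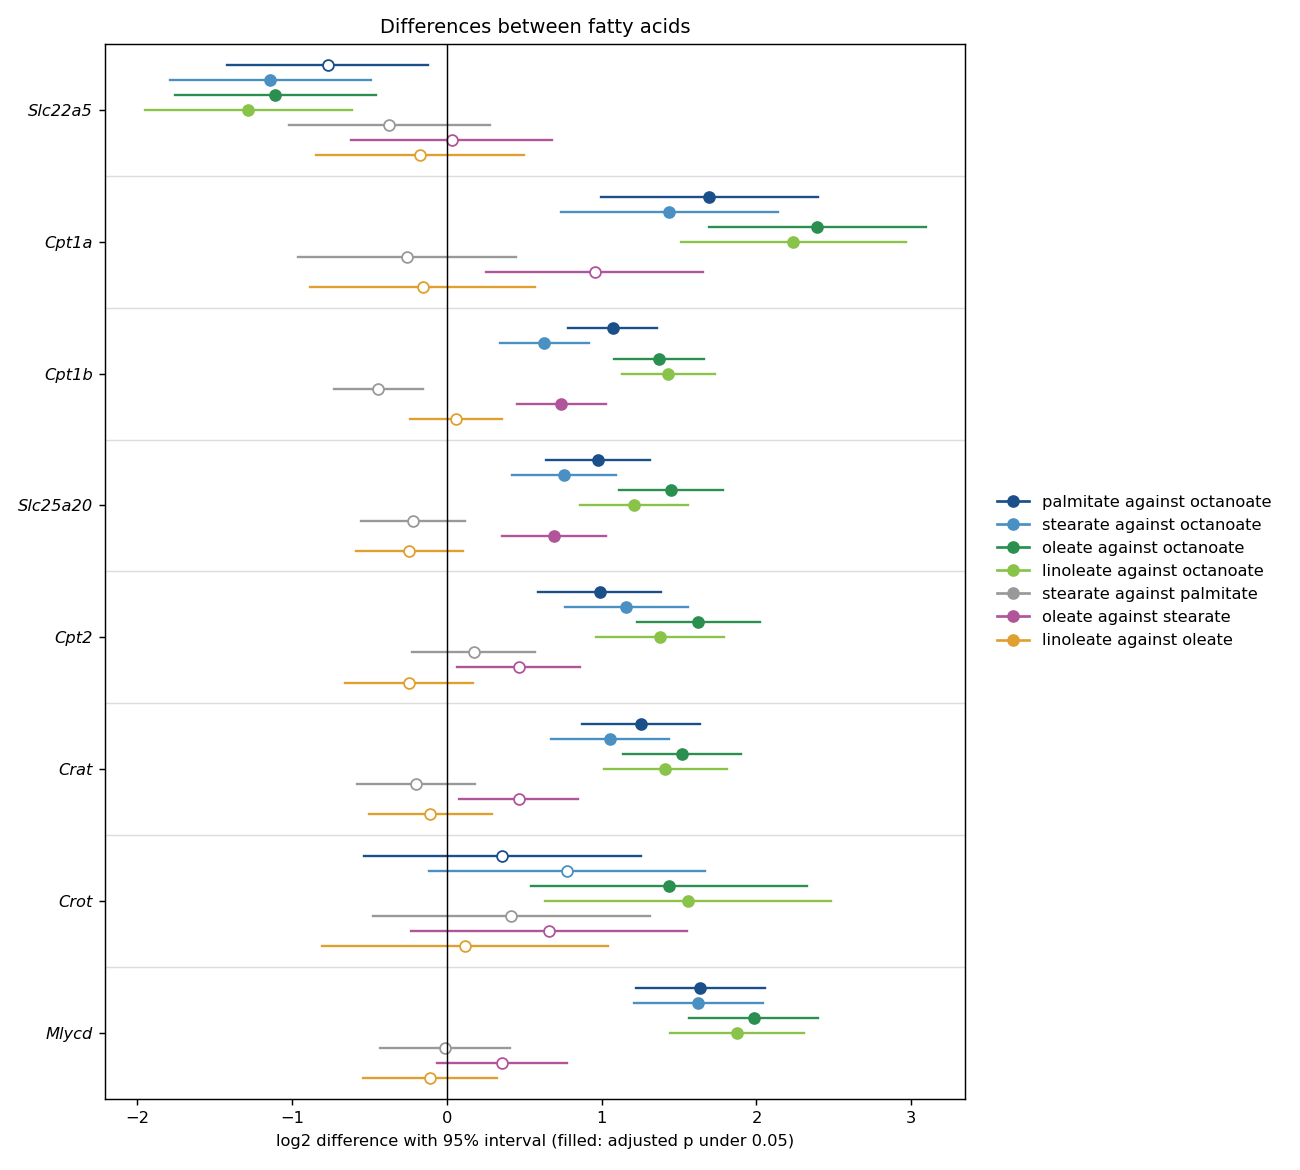
Log2 difference of each member between fatty acids for the 7 pairs compared, with 95% intervals from the limma fit; filled points have an adjusted p under 0.05. The long chains lie above octanoate for 7 members and below it for Slc22a5, while of the pairs among long chains only Cpt1b and Slc25a20 between oleate and stearate are filled.

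The genes around the shuttle were described by counts over lists. Of all genes, 24.7% were called against control under octanoate, 11.1% under palmitate, 13.1% under stearate, 0.571% under oleate and 0.473% under linoleate. In the same order, 1249, 308, 714, 34 and 21 of 7182 genes were called without the arrays numbered 4 and 7. Of 7 genes for fatty acid activation, which makes the acyl-CoA that the shuttle takes up, 6 were tested. Acsl1, the main long-chain acyl-CoA synthetase of heart, rose under palmitate by 1.26 ± 0.23 (adjusted p = 0.000282), stearate by 0.69 ± 0.23 (0.0419) and oleate by 1.19 ± 0.23 (0.00186). Slc27a1, a fatty acid transport protein, rose under oleate by 1.08 ± 0.26 (0.0261). Under octanoate 3 of the 6 were called, with Acsl5 higher by 1.36 ± 0.33 (0.00176), Acsl6 lower by 0.73 ± 0.27, a log2 change of -0.73 (0.0412), and 1 more gene higher. Under linoleate 0 of 6 were called in limma, and 2 had an unadjusted p under 0.05. Without the arrays numbered 4 and 7, the activation genes gave 1 call under octanoate, 1 under palmitate and 0 under the other fatty acids. Of 6 genes listed for medium-chain activation and oxidation 2 were tested, and octanoate lowered both. The Acsm genes, the medium-chain synthetases of this list, were not among those tested. Acadm, the medium-chain acyl-CoA dehydrogenase, fell by 0.43 ± 0.14 (0.0225) and Acss1, a mitochondrial acetyl-CoA synthetase, fell by 0.64 ± 0.19 (0.0106).

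Of 15 genes for malonyl-CoA supply and the AMP-activated kinase, 8 were tested. Octanoate lowered 2, the kinase subunit gene Prkag1 by 0.69 ± 0.24, a log2 change of -0.69 (adjusted p = 0.0294), and the carboxylase regulator Mid1ip1, at -0.54 ± 0.20 (0.0384). Stearate lowered 1, the citrate carrier Slc25a1, at -1.50 ± 0.25 (6.55e-05), and palmitate, oleate and linoleate called 0 in limma, with an unadjusted p under 0.05 for 1, 2 and 1. Without the arrays numbered 4 and 7 octanoate called 0. Of 9 genes for carnitine synthesis and other carnitine carriers, 3 were tested. Slc25a29, a mitochondrial carrier now known mainly for basic amino acids, was lower under each long chain, at -1.05 ± 0.20 for palmitate (0.000375), -0.80 ± 0.20 for stearate (0.00606), -0.91 ± 0.20 for oleate (0.011) and -0.98 ± 0.21 for linoleate (0.00821). The oleate and linoleate calls of Slc25a29 were lost without the arrays numbered 4 and 7.

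Beyond the shuttle, all 13 genes for long-chain beta-oxidation in mitochondria were tested. Octanoate lowered 4 and raised 0, where 13.1% of all genes were called lower, with Echs1, the enoyl-CoA hydratase, at -0.87 ± 0.17 (adjusted p = 0.000136). The long chains raised 4 (palmitate), 3 (stearate), 3 (oleate) and 2 (linoleate), where 5.3%, 4.19%, 0.515% and 0.334% of all genes were called higher. Palmitate lowered 1, Echs1 at -0.61 ± 0.17 (0.0129). Decr1, the dienoyl-CoA reductase for unsaturated acyl chains, rose under each long chain, by 0.70 under stearate to 1.26 under oleate. Etfdh, which passes electrons from the acyl-CoA dehydrogenases to ubiquinone, rose under each by 0.83 under stearate to 1.11 under oleate, and the isomerase Eci2 rose by 1.11 to 1.29 under palmitate, stearate and oleate. Set against octanoate, the mean of the long chains was called higher for 13 of 13, where 665 of 7182 genes were called higher. Without the arrays numbered 4 and 7, the control comparisons called 3 lower under octanoate, 2 higher under oleate and 0 under palmitate, stearate and linoleate (5, 4 and 5 at an unadjusted p under 0.05), and 13 of 13 were again called higher than under octanoate. Of 7182 genes, 611 were then called lower under octanoate, 33 higher under oleate and 706 higher for the mean against octanoate.

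For reference, of 8 genes known to respond to fatty acids in heart all were tested, and 1 was called under octanoate, 6 under palmitate, 5 under stearate, 6 under oleate and 4 under linoleate, all higher. In the same order, 11.6%, 5.3%, 4.19%, 0.515% and 0.334% of all genes were called higher. Linoleate called 5 without the arrays numbered 4 and 7, with Plin2 added (1.56, adjusted p = 0.00327). Pdk4, the kinase that shuts off pyruvate dehydrogenase, rose by 4.13 ± 0.46 under palmitate and 4.58 ± 0.46 under oleate, and was at 0.13 ± 0.46 under octanoate (adjusted p = 0.873). Of 9 PPAR receptors and coregulators 2 were tested, and Rxrg, an RXR receptor gene, was at -1.71 ± 0.27 under octanoate (adjusted p = 7.76e-06) and at -0.70 under stearate (0.0731, or 0.0158 without the arrays numbered 4 and 7). Of 4 tested hypoxia genes 0 were called against control under any fatty acid in limma, with an unadjusted p under 0.05 for 1 under octanoate, 2 under palmitate and 1 under stearate. Ankrd37 was called higher under octanoate (1.23, 0.0339) and palmitate (1.41, 0.0428) without the arrays numbered 4 and 7.

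**Figure D4:**
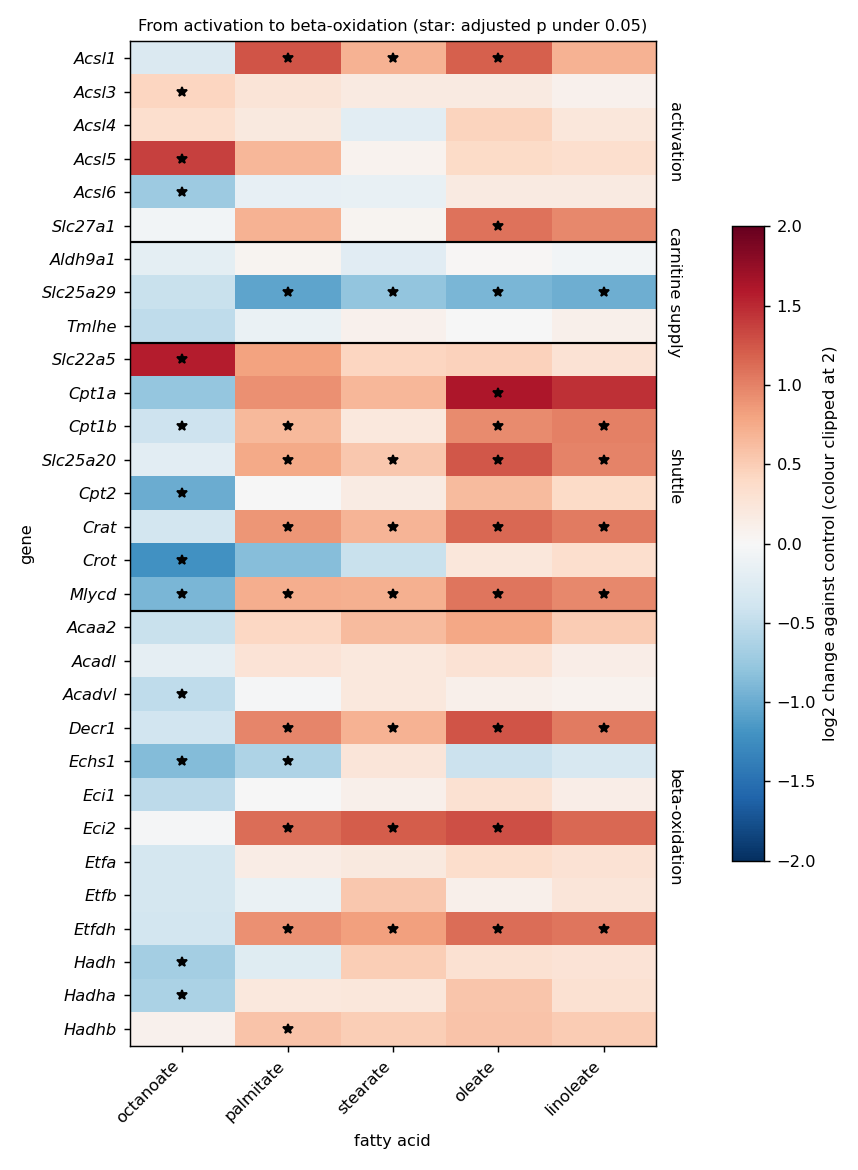
Log2 change against BSA control under the 5 fatty acids (columns) for the tested genes of fatty acid activation, carnitine supply, the shuttle and mitochondrial beta-oxidation (each gene on its own line), with colour clipped at 2 and stars for an adjusted p under 0.05. Shuttle and beta-oxidation genes called under octanoate are lower, except Slc22a5 at 1.57, and those called under long chains are higher, except Echs1 under palmitate at -0.61, with stearate's Slc25a20 turning to -0.15 when arrays are scaled to their median.

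The patterns most like those of 3 members over the 46 arrays were found by Pearson correlation of log2 values, as a description. These arrays share groups and array numbers, and r carries no test. Cpt1b was most like Angptl4 (r = 0.875), a secreted lipase inhibitor, then Retsat (0.869) and Impa2 (0.855). Mlycd was most like Txnip (0.901), Ucp2 (0.895) and Crat (0.891). Slc25a20 was most like Ucp2 (0.908), Crat (0.889) and Mlycd (0.885), so that Crat and Ucp2 were near both.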

How the data were processed

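RNA of 46 samples was measured on Illumina rat bead arrays. The deposited table held bead intensity values, with a detection p-value per probe and array, per the file headers, and from the values it was neither background-subtracted nor normalized. BeadStudio version 3 was named in the submitters' processing notes. A second table by the authors held intensity values that were, from the values, linear and quantile normalized without background subtraction, and it served as an alternative. Here intensities were corrected with normexp from the detection p-values (offset 16), quantile normalized and log2 transformed (limma 3.58.1 in R 4.3.3). Probes detected at p under 0.01 in at least 7 arrays were kept (7312 of 22517), with the brightest probe per gene, giving 7182 genes. Each comparison was a contrast in a fit of all 6 groups with lmFit and eBayes, and p-values were Benjamini-Hochberg adjusted over all genes. Intervals are 95% and unadjusted. The procedure was tested on simulated data. Gene coordinates are those of RefSeq on GRCr8, matched through the accession of each probe, and levels are not compared between probes.

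Groups came from the sample labels. Members and lists were chosen with earlier results of these data known. All members are named. Of each list up to 4 called genes are named, those with the largest change against control, and the likeness to other genes was computed for the 3 members with the smallest p in the F test. A planned contrast of Mlycd with Acacb was not run, since no Acacb probe was found. Samples of the same number deviated together (r over 0.1 in all 8 pairs) for palmitate, stearate and oleate against octanoate, stearate against palmitate and oleate against stearate, which was taken as pairing, from the data and not from the labels. In those 5 comparisons the blocked value is printed where it changes a call. Alternatives were the background correction, the normalization, the detection filter, the block, the groups in the fit, the arrays numbered 4 and 7, the signal range as a covariate, the authors' values, the adjustment, and each array left out in turn. The number of arrays limits the precision.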

Additional observations from a re-analysis of the deposited data

Results flagged for a closer look

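Among 48 sets of values (8 members in 6 groups), 7 had a highest or lowest array whose gap to the next was large for the range of its group by Dixon's test, where chance gives about 1 in 20. Array 4 was the low one in 6 of them. These were Mlycd at 10.57 under palmitate, 10.51 under oleate and 10.48 under linoleate, Cpt2 at 11.24 under oleate and 11.05 under linoleate, and Crat at 9.34 under oleate, all in normalized log2 intensity. In the same arrays Ankrd37, Bnip3 and Ldha were high, with Ankrd37 at 12.4 to 12.5, and the part of this state in the member values was not tested. Palmitate array 2 was high for Cpt1a, at 9.18.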

How the results depend on the processing

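Without background correction, and with the authors' normalized values, each of 104 member changes kept its side of the threshold, and no called change turned. Direction was not compared for changes called in neither setting. Median scaling over all probes kept 70 of 104, with 29 weaker, 4 stronger and Slc25a20 under stearate turned to -0.15. It gave 3 called members under octanoate and 0 under palmitate, stearate, oleate and linoleate against control, 2 for palmitate and 2 for stearate against octanoate, 1 for stearate against palmitate and 5 for oleate against stearate. Of 7182 genes it called 37 for palmitate and 1923 for stearate against octanoate, 502 for stearate against palmitate and 786 for oleate against stearate. It moved the all-gene median by between -0.44 and 0.37, to -0.51 for stearate against octanoate, and the share of higher calls by -42.8 to 29.5 points, from 301 higher and 640 lower to 33 and 1829 for stearate against control. Median scaling over always-detected probes, chosen after seeing the data, kept 100 of 104, and stearate then had 413 higher and 350 lower. Relative to the all-gene median, 101 of 104 changes kept their side under median scaling. Both scalings shift all genes of an array by the same amount. These relative values are therefore the same under either, and the second scaling adds no further check of them. The cause of these differences was not tested.

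With no detection filter, octanoate called 3 members and stearate 0 (more genes are adjusted over), where 1488 and 710 of 21914 genes were called. With only the groups compared in the fit, oleate called 3 and linoleate 1 (fewer samples estimate the spread), where 25 and 19 of 7182 genes were called. With signal range as a covariate stearate called 1, where 1329 genes were called. Adjusting over genes and comparisons together, octanoate called 3 and stearate against palmitate 1, where 1394 and 424 genes were called. Without the arrays numbered 4 and 7, octanoate called 3 and oleate against stearate 4, where 1249 and 727 genes were called. Leaving out each array in turn, an alternative added after seeing the data, gave 3 to 5 for octanoate, 3 to 4 for palmitate, 1 to 3 for stearate, 4 to 6 for oleate and 3 to 5 for linoleate. Against octanoate it gave 6 to 7 for palmitate, 7 to 7 for stearate, 7 to 8 for oleate, 8 to 8 for linoleate and 7 to 8 for the mean, and among long chains 0 for stearate against palmitate and linoleate against oleate and 2 to 5 for oleate against stearate. The difference of the Cpt1a and Cpt1b changes under stearate became 0.82 (exact permutation test, adjusted p 0.0287) with median scaling, and was not called under any other setting run. Without background correction, or with the authors' values, these differences turned to -0.06 for palmitate and -0.05 for linoleate and shrank to -0.12 for octanoate, 0.19 for stearate and 0.13 for oleate, none called. Members called in the F test fell to 7, without Crot, with median scaling, with no detection filter and without octanoate arrays 5, 6 or 8.

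The replicate block gave 1 called member for stearate against palmitate, Cpt1b, and beside the calls printed with the results it changed no other in the 5 paired comparisons. Control samples shared only a number with the others, and correlated best with their own number in 1 or 2 of 7 pairs in each comparison with control. Linoleate samples did so in 4 of 7 pairs with octanoate or oleate, and stearate samples in 3 of 8 pairs with palmitate. For linoleate r was over 0.1 in 5 of 7 pairs with octanoate and 6 of 7 with oleate (up to 0.95), short of the rule of all pairs. The block left linoleate against oleate at 0 called members. Against control the block also called Cpt1a under octanoate (adjusted p = 0.038), palmitate (0.00438), stearate (0.0325) and linoleate (0.000876) and Slc22a5 under palmitate (0.0168). Cpt1a and Crot, detected in 26 and 38 of 46 arrays, had the least signal over background.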
